A study of Mus musculus with 2 samples.

Results

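The genes described here encode membrane channels that let ions, and in several cases small metabolites such as ATP, cross the surface of the cell: the connexins Gja1, Gja4 and Gja5, the pannexin Panx1, the ATP-gated P2X receptors P2rx4, P2rx5 and P2rx7, and the cation channel Trpv2. They were chosen by name, as channels linked to the leaky membrane of muscle fibres that have lost their nerve. Earlier results of these data were known when they were chosen. Every probe whose label, or the current symbol of its RefSeq transcript, was one of these 8 names was taken. That gave 14 of the 41174 probes on the array and 8 of its 21974 gene symbols. All 8 genes were measured, through 13 of the 14 probes.

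The denervated group was gastrocnemius, a mostly fast-fibre calf muscle, of wild-type male C57BL/6 mice denervated for 14 days. Denervation was at an age of 7 weeks and sampling at 9 weeks. The control group was gastrocnemius of wild-type C57BL/6 males of the same 9 weeks of age, with no denervation. Its title names a sham control and its source just a control, so whether these mice underwent sham surgery is not settled by the labels. RNA of 6 mice was pooled in each group, and each pool was hybridised to 1 Agilent array with 1 dye (Cy3). The comparison asks how channel transcripts of atrophying, denervated muscle differ from those of control muscle, and with 1 array per group no difference below has a replicate check or a test. Neither the way the nerve was interrupted nor the way the pools were mixed is given in the sources used here.

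Connexins assemble as hexamers in the plasma membrane. A hexamer that docks with one on the next cell forms a gap junction, and an undocked one is a hemichannel that can open to the outside. Pannexin 1 forms channels that do not dock and that release ATP, and P2X receptors are trimers that open to cations when ATP binds outside the cell. In innervated adult fibres Panx1 sits in the transverse tubules, while connexins of muscle tissue are known mainly from vessels, from nerve and from developing or regenerating fibres.

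A signal below is the processed intensity of a probe in arbitrary units, before any scaling between arrays. A log2 difference is denervated minus control after each array was scaled to its 75th percentile, which was 1063 on the denervated array and 788 on the control array. A probe with equal signals on both arrays therefore has a difference of -0.43. The number after ± is the technical error that the scanner software assigns to a spot, carried through both arrays. It does not hold the spread between mice. A gene with several measured probes is represented by its brightest probe (by mean signal over both arrays), with the rest given beside it. Signals of different probes are not compared, since brightness depends on the probe.

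The promoter sequences of Panx1, P2rx7 and P2rx4 are shown here. At their brightest probes these 3 genes stood above 0 by more than their technical error, and P2rx7 and P2rx4 are neighbours on one chromosome. Trpv2 also stood above 0, but within that error, and its windows are not printed. RefSeq promoter windows on GRCm38.p6 were found for 7 of the 8 genes, all but P2rx5. Each line gives the 250 bases before an annotated start on the gene's own strand, 5′ to 3′. Panx1 lies on the minus strand (chr9:15045479-15045728), and capitals in it mark matches to the RUNX motif TGTGGT or its reverse ACCACA. P2rx7, at its first annotated start, lies on the plus strand (chr5:122643677-122643926), and capitals in it mark the AP-1 motif TGANTCA. P2rx4 lies on the plus strand (chr5:122707294-122707543) and holds no match to either motif. The RefSeq gene span of P2rx4 begins at 122707518, so the last bases of its window lie within the gene model.
Panx1: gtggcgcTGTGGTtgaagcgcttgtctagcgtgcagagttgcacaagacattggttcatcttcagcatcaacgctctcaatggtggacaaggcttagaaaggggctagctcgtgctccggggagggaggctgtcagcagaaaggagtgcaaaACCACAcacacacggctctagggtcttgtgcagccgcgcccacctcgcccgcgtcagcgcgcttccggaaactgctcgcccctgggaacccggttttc
P2rx7: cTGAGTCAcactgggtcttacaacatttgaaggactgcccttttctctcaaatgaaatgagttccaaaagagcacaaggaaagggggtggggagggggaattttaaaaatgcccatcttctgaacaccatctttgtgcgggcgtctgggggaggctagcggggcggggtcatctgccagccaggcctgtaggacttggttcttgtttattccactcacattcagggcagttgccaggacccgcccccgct
P2rx4: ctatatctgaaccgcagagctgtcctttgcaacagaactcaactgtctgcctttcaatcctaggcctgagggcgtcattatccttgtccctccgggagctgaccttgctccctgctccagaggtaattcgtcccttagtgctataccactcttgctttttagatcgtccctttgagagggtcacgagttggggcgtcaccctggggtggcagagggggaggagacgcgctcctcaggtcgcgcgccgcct

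The Panx1 window held 2 RUNX matches, whose first bases lay 243 and 98 bases before the start. Over all 32851 RefSeq mouse promoter windows of this length, 14.1% held at least 1 RUNX match on either strand and 1.27% held 2 or more. The P2rx7 window held 1 AP-1 match, 249 bases before the start, and the Gja1 window held 1 at 19 bases, against 6.75% of all windows. The PU.1 core GAGGAAGT, or its reverse ACTTCCTC, occurred in 1 of these genes, Trpv2, 14 bases before its first annotated start, and in 2.44% of all windows. E-boxes (CANNTG) are common, at 66.2% of all windows. There were 4 in the P2rx7 window, 1 in that of P2rx4 and 0 in that of Panx1. No printed match overlapped another. These matches describe the letters of the windows only.

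Among the 8 genes, Panx1 and P2rx5 were higher by 2-fold or more in denervated muscle, P2rx4 and P2rx7 were higher by less than 2-fold, Trpv2 and Gja4 were near 0, and Gja1 and Gja5 were on the low side. So 2 of 8 were at least 2-fold higher, where 6.92% of all 15652 measured genes were. The 8 were chosen with earlier results of these data known, so this share and the next ones are descriptive only. None of the 8 was at least 2-fold lower, where 8.59% of all measured genes were. Of the 8, 5 lay above 0, against 42.7% of all measured genes, and 3 below 0, against 57.3%. Their median log2 difference was 0.46, and that of all measured genes -0.11. The choice of scaling matters for the middle of this range. Scaling to the 8 spike-in probes moves every gene up by 0.40 and leaving the arrays unscaled moves it up by 0.43. P2rx4 and P2rx7 then pass 2-fold as well, as do 14.5% and 15.4% of all measured genes.

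**Figure D1:**
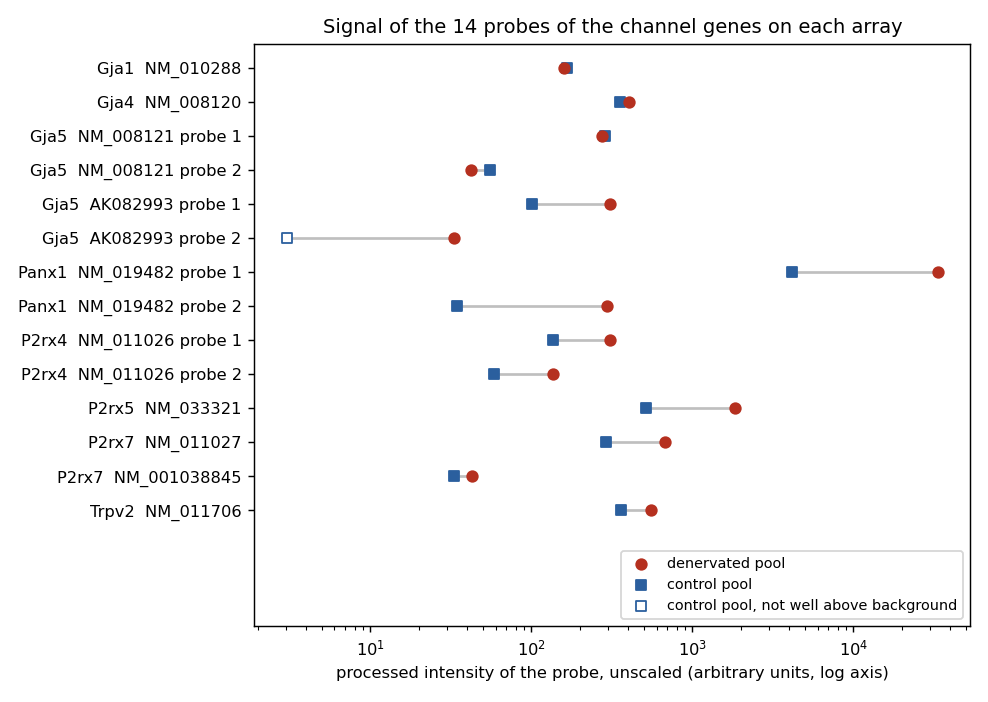
Unscaled processed intensity (arbitrary units, log axis) of each of the 14 probes in the denervated pool (circles) and the control pool (squares), 1 array each, with an open square where the control signal was not well above background. The circles of Panx1, P2rx4 and P2rx5 lie clearly to the right of their squares, and those of Gja1 and of both RefSeq Gja5 probes lie at or to the left of theirs.

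Panx1, the channel through which muscle fibres release ATP, had the highest difference of the 8. Its probe A_51_P135340 (transcript NM_019482, chr9:14756199-14756258 on mm8, minus strand) gave a signal of 33485 in the denervated pool, against 4165 in the control pool. The log2 difference was 2.57 ± 0.20, or 5.96-fold higher, and 125 of the 15652 measured genes (0.799%) had a higher one. A second probe 2.11 kb away on the same transcript, A_52_P681332 (chr9:14758308-14758367), gave 295 in the denervated pool, against 34.5 in the control pool. Its difference of 2.66 ± 0.26 departed from the first by 0.09 with a combined technical error of 0.33, so the 2 probes did not differ beyond that error. Across all 14 alternative settings Panx1 ranged from 2.57 to 3.01. In whole muscle, fewer cells of a type and less RNA per cell cannot be told apart, and the same holds for more cells and more RNA. This applies to each gene below.

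Among the P2X receptors, P2rx5 had the highest difference. P2X5 is known in rat muscle from satellite cells and differentiating myoblasts. Its single probe A_51_P519420 (NM_033321, chr11:72988355-72988414 on mm8, plus strand) gave a signal of 1836 in the denervated pool, against 513 in the control pool. The difference was 1.41 ± 0.20, or 2.65-fold higher, and 565 measured genes (3.61%) had a higher one. It ranged from 1.29 to 1.84 over the 14 alternatives and stayed past 2-fold in each.

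P2rx7 encodes the P2X receptor with the lowest affinity for ATP, known from macrophages, where its opening leads to release of interleukin 1. P2rx4 encodes a more sensitive receptor that is found in macrophages and endothelium and is abundant on endolysosomes. On GRCm38.p6 the 2 genes lie 15.2 kb apart on chromosome 5 with no protein-coding gene between them. The probe A_52_P393314 of P2rx7 (NM_011027, chr5:122944802-122944861 on mm8) gave a signal of 678 in the denervated pool, against 292 in the control pool. The difference was 0.78 ± 0.20, or 1.72-fold higher. The other P2rx7 probe, A_51_P506733, is assigned to the transcript NM_001038845 (chr5:122931136-122934021) and gave 43.0 in the denervated pool, against 32.9 in the control pool. Its difference was -0.05 ± 0.31, and it turns positive under spike-in scaling or with no scaling. The first probe exceeded it by 0.83 with a combined technical error of 0.37. The probes of P2rx7, 13.7 kb apart and assigned to different transcripts, thus did not give one value for the gene.

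P2rx4 was measured by 2 probes of NM_011026 that lie 0.851 kb apart. A_51_P308275 (chr5:122989220-122989279 on mm8) gave a signal of 307 in the denervated pool, against 135.5 in the control pool, a difference of 0.75 ± 0.21 or 1.68-fold higher. A_52_P265524 (chr5:122988369-122988428) gave 136.5 in the denervated pool, against 58.7 in the control pool, a difference of 0.78 ± 0.22. The 2 probes differed by 0.04 with a combined technical error of 0.30. With normexp background correction the difference of P2rx4 was 0.47. The RefSeq gene model of P2rx4 overlaps that of the kinase gene Camkk2 on GRCm38.p6, and the probe of Camkk2 gave a difference of 0.05.

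Macrophage markers were read beside P2rx4 and P2rx7, whose brightest probes were above 0. All 16 of 16 measured markers were above 0 and 15 were at least 2-fold higher, with a median of 1.64. Their summed signal, each divided by its array's 75th percentile, was 67.9 in the denervated pool, against 23.4 in the control pool, and none was at 0 in either. The largest differences were those of Cd68, a lysosomal glycoprotein, at 3.53 ± 0.21 and of the Fc receptor Fcgr1 at 2.21 ± 0.21 (second probe 0.77). The brightest markers were Lyz2, at 1.48 ± 0.20, and Ctss, at 1.75 ± 0.20. The differences of P2rx4 and P2rx7, at 0.75 and 0.78, lay below the brightest probe of each of the 16 markers, of which Cd14 was the lowest at 0.84. The second probes of Ptprc (0.74, against 1.44 for its brightest) and Fcgr1 lay below P2rx7. Of 5 measured T and B cell markers 0 passed 2-fold, with a median of -0.46, and 3 more were above background in the control pool alone. The part of these cells in the receptor values was not tested.

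**Figure D2:**
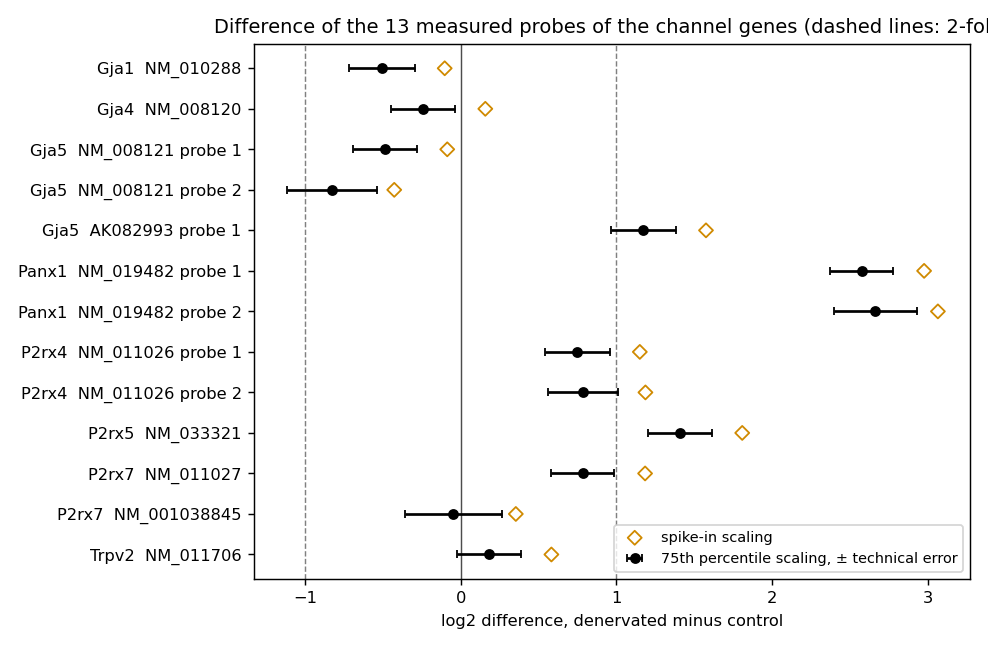
Log2 difference, denervated minus control, of the 13 measured probes with 75th percentile scaling (circles, bars are ± technical error) and with spike-in scaling (diamonds), and dashed lines at 2-fold. Both Panx1 probes and P2rx5 lie past 2-fold under either scaling, while the P2rx4 probes and the NM_011027 probe of P2rx7 pass it only with spike-in scaling, and the AK082993 probe that the array labels Gja5 lies opposite the RefSeq probes of that gene.

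Gja1 encodes Cx43, a connexin that is widespread in vessels and connective tissue and appears in regenerating muscle. Its probe A_52_P174915 (NM_010288, chr10:56078423-56078482 on mm8, plus strand) was printed 10 times on each array. The spots ranged over 149 to 171 in the denervated pool with a median of 160, against 152 to 190 in the control pool with a median of 170.4. The spot signals of the pools overlapped. Averaged over spots the signal was 159 in the denervated pool, against 168 in the control pool. After scaling, each of the 10 spots lay below 0, from -0.66 to -0.36, with a mean of -0.50 and an SD of 0.10 over spots (± 0.21 from the scanner's error). Unscaled, 7 of the 10 lay below 0 and the mean was -0.07, so its sign rests on a value near 0 there. The control signal was 1.42-fold higher with the main scaling. The spots are repeats of one hybridisation, not samples.

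Gja4 encodes the endothelial connexin Cx37. Its single probe A_52_P117352 (NM_008120, chr4:126813908-126813967 on mm8, minus strand) gave a signal of 407 in the denervated pool, against 357 in the control pool. The difference was -0.24 ± 0.20, and it turned to 0.16 with spike-in scaling and 0.19 with none.

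Gja5 encodes Cx40, a connexin of arterial endothelium. A_52_P525317 (NM_008121, chr3:97138831-97138890 on mm8, plus strand) gave a signal of 275 in the denervated pool, against 286 in the control pool, a difference of -0.49 ± 0.21. A_51_P333216, on the same transcript 2.38 kb away (chr3:97136450-97136509), gave 42.2 in the denervated pool, against 55.6 in the control pool, a difference of -0.83 ± 0.29. These 2 probes differed by 0.34 with a combined technical error of 0.35. Spike-in scaling brought the first to -0.09.

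The array labels 2 further probes Gja5, through the cDNA clone AK082993 and with no RefSeq transcript, and these moved the other way. A_52_P496163 (chr3:98496448-98496507 on mm8) gave 307 in the denervated pool, against 101 in the control pool, a difference of 1.17 ± 0.21 or 2.26-fold higher. A_52_P612636 (chr3:98497154-98497213) gave 33.2 in the denervated pool, while its control signal of 3.04 was not well above background, so it was at least 1.69-fold higher. Such a bound sets the measured signal against the lowest signal that was well above background on the other array. The first AK082993 probe lay 1.66 above the RefSeq probe used for Gja5, with a combined technical error of 0.29.

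These clone probes do not lie at Gja5. They are 1358 kb from its RefSeq probe on mm8, while the whole RefSeq gene spans 21.2 kb on GRCm38.p6. The probes around them within 100 kb were read after the values had been seen. The nearest, 18.0 kb away, is A_51_P202574 of Zfp697, a zinc finger gene (NM_172863, chr3:98515130-98515189). This probe gave 193 in the denervated pool, against 6.00 in the control pool, where it was not well above background. It was thus at least 9.86-fold higher. The RefSeq gene of Zfp697 spans 49.99 kb on GRCm38.p6, more than the 18.0 kb between these probes. Whether the clone probes belong to Zfp697 was not tested. On the other side, the 3 probes of Phgdh, an enzyme of serine synthesis, gave -1.05, -0.53 and -0.85. Beyond Zfp697, the probe of Hsd3b4 gave -0.57, and that of LOC673307 was at least 1.74-fold lower in the denervated pool. The RefSeq probes are taken as the value of Gja5 here, and the mean over its 3 measured probes was -0.05, against -0.66 without the clone probe.

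**Figure D3:**
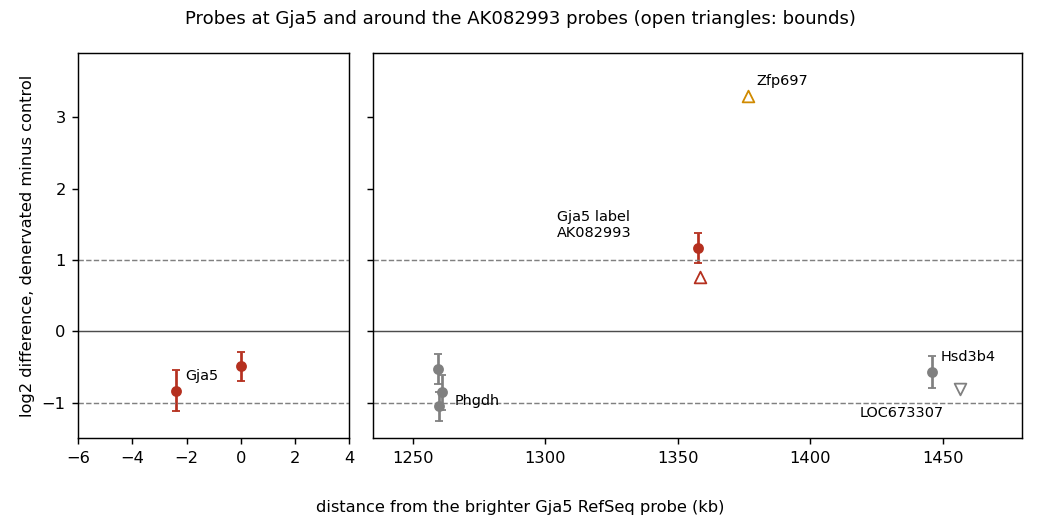
Log2 difference, denervated minus control, of the probes labelled Gja5 and of other probes near the AK082993 clone, against distance in kb from the RefSeq Gja5 probe used (bars are ± technical error, open triangles are bounds). The RefSeq Gja5 probes lie at -0.83 and -0.49, and the clone probes lie 1358 kb away and above 0, beside the bound of Zfp697.

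The vascular and connective-tissue markers beside which these connexins are usually found were as follows. Of 10 endothelial markers 1, the receptor Kdr at -1.12 ± 0.20, was lower by 2-fold or more, a call lost with spike-in scaling (-0.72), where 0 of the 10 passed. The median of this list was -0.61, with all 10 below 0 under the main scaling and 8 below 0 with spike-in scaling. The endothelial markers Emcn (-0.75), Flt1 (-0.73) and Egfl7 (-0.74) are the others named by rule. Their summed scaled signal was 28.4 in the denervated pool, against 46.5 in the control pool. Of 7 measured arterial endothelial markers 1, Unc5b at -1.30 ± 0.21, was at least 2-fold lower and the median was -0.58. With spike-in scaling Unc5b was at -0.89, so 0 were at least 2-fold lower, and 4 of 7 lay below 0. The Notch ligand Dll4 was at -0.90, Sema3g at -0.37 and Jag1 at -0.08, and the summed scaled signal was 5.94 in the denervated pool, against 8.06 in the control pool. None of the measured markers was at 0, and Bmx was not above background. The RefSeq values of Gja4 and Gja5, at -0.24 and -0.49, lay within the range of these arterial markers, and their part in the connexin values was not tested.

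Smooth muscle and pericyte markers had a median of -0.69, with 0 of 11 past 2-fold and 10 of 11 below 0 under the main, the spike-in and the unscaled settings. Lmod1 stood at -0.99, Kcnj8 at -0.91, Acta2 at -0.54 and Rgs5 at -0.60. The summed scaled signal was 301 in the denervated pool, against 435 in the control pool. Most of it came from the single Acta2 probe, with an unscaled signal of 279691 in the denervated pool, against 302075 in the control pool. The sum thus says little about the other markers of this list. Fibroblast markers had a median of 0.12, with Lum 1.03 and Clec3b -1.04 past 2-fold (Clec3b -0.64 with spike-in scaling), Dcn at 0.15 and Gsn at -0.61, and summed to 336 in the denervated pool, against 355 in the control pool. None of these markers was at 0 in either pool. Gja1, at -0.50, lay between the medians of these 2 lists, and their part in its value was not tested.

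Trpv2 encodes a cation channel of the vanilloid family that is known in muscle for calcium entry and is also expressed in macrophages. Its probe A_51_P302749 (NM_011706, chr11:62416313-62416372 on mm8, plus strand) gave a signal of 552 in the denervated pool, against 361 in the control pool. The difference of 0.18 ± 0.20 was within its technical error, and it was 0.58 with spike-in scaling and 0.61 with none. It lay above 0 in all 14 alternatives and past 2-fold in 0 of them.

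**Figure D4:**
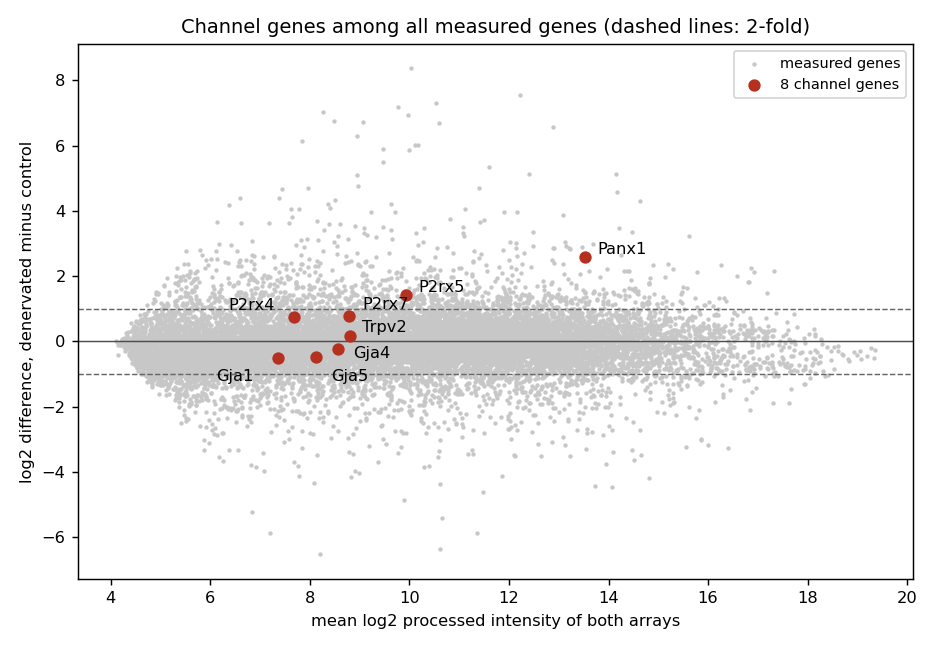
Log2 difference, denervated minus control, of all 15652 measured genes (grey) and of the 8 channel genes (red) against mean log2 processed intensity, with dashed lines at 2-fold. Panx1 and P2rx5 lie above the upper line, and the other 6 genes lie between the lines.

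The relatives of these channels did not share one direction. Of 17 other connexin and pannexin genes with a probe, 7 were measured and 10 were not above background on either array. Gjb2, which encodes Cx26, was higher by 1.99 ± 0.23, with a signal of 229 in the denervated pool, against 42.6 in the control pool. Gjc3, a connexin of myelinating glia, was at -1.15 ± 0.36, with 24.0 in the denervated pool, against 39.4 in the control pool. With spike-in scaling Gjc3 was at -0.75, so 0 of the 7 then passed 2-fold on the low side and 2 on the high side. The median of the 7 was -0.35, which turns to 0.05 with spike-in scaling. The connexins Cx45 and Cx39, encoded by Gjc1 and Gjd4, are named for their known link to denervated or developing muscle and were looked up after values had been seen. Gjc1 was at -0.79 ± 0.20, with 436.5 in the denervated pool, against 560 in the control pool and a second probe at -0.71. Gjd4, with 15.2 in the denervated pool, against 12.9 in the control pool, was not well above background on either array. The other pannexin with a probe, Panx3, was not above background, and Gje1 and Panx2 had no probe by name.

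By their brightest probes, the other measured P2X receptors lay on the opposite side of 0 from the 3 described above. The second probe of P2rx7 was at -0.05. P2rx3, a receptor of sensory neurons, had a signal of 241 in the denervated pool, against 527 in the control pool, a difference of -1.56 ± 0.21. P2rx6, a receptor subunit of skeletal muscle, had 394 in the denervated pool, against 665.5 in the control pool, a difference of -1.19 ± 0.20. P2rx2 was at -0.51 ± 0.21 and P2rx1 was not above background. So 2 of 3 measured were at least 2-fold lower, and all 3 stayed below 0 under spike-in scaling or none, where only P2rx3 kept a 2-fold difference. The receptors P2rx5 and P2rx6 thus differed in sign, at 1.41 and -1.19, under each scaling.

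Of the other TRPV channels 1 of 4 with a probe was measured, Trpv4, the osmosensitive channel, at -0.15 ± 0.21, which turns to 0.25 with spike-in scaling. Trpv6 was above background in the denervated pool only, at least 1.21-fold higher. None of 8 measured TRP and stretch-gated channels outside that family passed 2-fold. Their median of -0.36 turns to 0.04 with spike-in scaling, and Trpm3 stood furthest from 0 at -0.91 ± 0.29. The lysosomal channel gene Mcoln2, named after its value was seen, was above background in the denervated pool only and at least 2.71-fold higher. In the same list 2 genes were above background in the control pool only, Trpc4, at least 1.33-fold lower, and Trpc6, at least 1.79-fold lower.

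Receptors and enzymes of extracellular nucleotides differed in both directions. Of 10 measured P2Y and adenosine receptors 1, the nucleotide receptor P2ry2, was lower by 2-fold or more at -1.12 ± 0.20, with a signal of 3251 in the denervated pool, against 5254 in the control pool. With spike-in scaling P2ry2 was at -0.72 and 0 receptors were at least 2-fold lower, while 1 passed 2-fold on the high side, P2ry12 at 1.39 (chosen after its value was known). The median of these receptors was -0.02, or 0.38 with spike-in scaling. Of 12 measured enzymes that act on extracellular nucleotides, the ectonucleotidase Enpp3 was higher by 2.32 ± 0.20, with 1535 in the denervated pool, against 228 in the control pool and a second probe at 2.16. The lysophospholipase D autotaxin (Enpp2) was at -1.57 ± 0.20 and the phosphatase Alpl at -1.04 ± 0.20. The remaining 9 lay within 2-fold and the median was 0.38. Under spike-in scaling 3 enzymes passed 2-fold on the high side and 1 on the low side, Alpl being at -0.64. The median was then 0.78, and 0.13 with normexp background correction.

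P2X7 is known for activating the NLRP3 inflammasome, and 8 of 11 genes of that response were measured. Casp4, an inflammatory caspase, was higher by 1.97 ± 0.20, with 4192 in the denervated pool, against 791 in the control pool. Txnip, a thioredoxin-binding protein, was at -1.23 ± 0.20, with 26154 in the denervated pool, against 45460 in the control pool, and a second probe gave -1.72. With spike-in scaling the brightest Txnip probe was at -0.83, within 2-fold. The second probe stayed at least 2-fold lower after the same shift of 0.40. The other 6 lay within 2-fold at their brightest probe. Among them Casp1 was at 0.37 ± 0.21 and Nlrp3 at -0.58 ± 0.22, both named after their values were seen. Second probes of 2 of the 6 passed 2-fold, Nek7 at 1.32 against -0.89 for its brightest probe and Pycard at 1.14 against 0.57. Nek7 and Pycard were also named after their values were seen. The list's median of -0.29 turned to 0.12 with spike-in scaling and to 0.11 with the mean of a gene's probes. The cytokine genes Il1a, Il1b and Il1rn were not well above background on either array. Of 11 measured scaffold and partner proteins of gap junctions 1, Tjp3, was at least 2-fold lower at -1.64 ± 0.32, and the median of -0.29 turned to 0.11 with spike-in scaling.

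**Figure D5:**
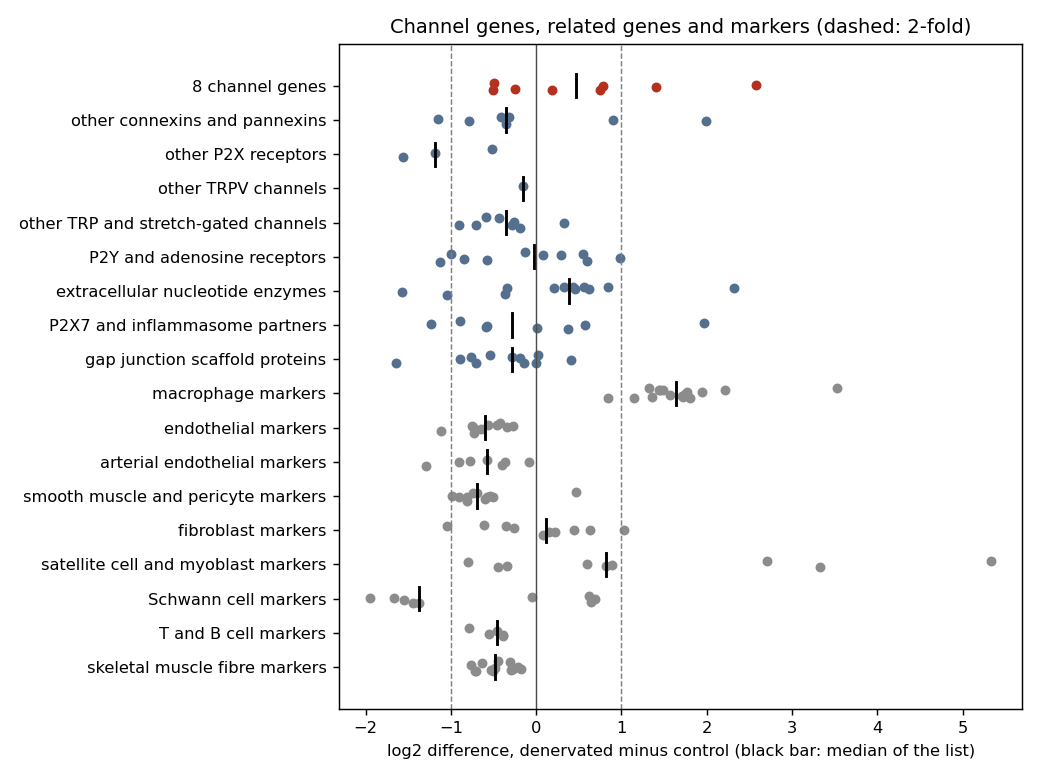
Log2 difference, denervated minus control, of each measured gene (points) in the 8 channel genes, in lists of related genes and in cell-type marker lists, with a black bar at each list's median and dashed lines at 2-fold. The channel genes span -0.50 to 2.57, the 3 other P2X receptors lie below 0, the macrophage markers lie at 0.84 or above by their brightest probes, and the muscle fibre markers all lie below 0.

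Fibre markers and denervation-response genes were read beside the labels, from lists chosen with earlier results of these data known. They do not check which muscle was taken. All 13 skeletal muscle fibre markers were measured on both arrays, 0 passed 2-fold, and their median was -0.49. They were below 0 throughout, or 8 of 13 with spike-in scaling, and their summed scaled signal was 4233 in the denervated pool, against 5694 in the control pool. Cacna1s (-0.77), Ckm (-0.72), Tnnc2 (-0.50) and Tnnt3 (-0.21) are those named by rule. All 9 denervation-response genes were at least 2-fold higher, with a median of 4.57. Chrng, the fetal acetylcholine receptor subunit, was at 8.37 ± 0.23 (second probe 4.31) and Runx1 at 6.02 ± 0.21 (second probe 1.27). Gadd45a was at 5.14 ± 0.20 and Chrna1 at 4.57 ± 0.20 (second probe 3.19). Of 9 measured satellite cell and myoblast markers 3 were at least 2-fold higher, Myog at 5.34 ± 0.20, Ncam1 at 3.33 ± 0.20 (second probe 0.82) and Myod1 at 2.71 ± 0.20. Myog and Ncam1 are also among the denervation-response genes. Cdh15 and Itga7 were at 0.89 and 0.82 and the median was 0.82. The 3 markers below 0 were Pax7 (-0.80), Vcam1 (-0.44) and Calcr (-0.34), or 2 markers with spike-in scaling. The summed scaled signal of the satellite cell and myoblast list was 49.3 in the denervated pool, against 11.0 in the control pool. Its part in the values of P2rx5 and Panx1 was not tested. Of 9 Schwann cell markers 5 were at least 2-fold lower, including Mal at -1.95 ± 0.28, with Pmp22 at -1.55 and S100b at -0.04. Under spike-in scaling 4 passed 2-fold on the low side and 3 on the high side. Their median was -1.38, but -0.43 with the mean of a gene's probes, -0.71 with the stricter filter on dim probes and -0.96 with the probe nearest 0. Their summed scaled signal was 6.36 in the denervated pool, against 13.5 in the control pool. Their part in the value of Gjc3 was not tested.

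On the arrays as a whole, 68.4% of probes were well above background in the denervated pool, against 70.9% in the control pool. The higher genes made up 44.6% of all those past 2-fold, a share that became 77.9% with spike-in scaling and 79.8% with none. Quantile normalisation gave 53.5% and loess centring 54.3%. Differences between -0.43 and 0 therefore have no settled direction. Both arrays lay on one slide and in one scan, so array position and group cannot be told apart.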

How the data were processed

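Gastrocnemius RNA of 6 mice per group was pooled, purified with the RNeasy Mini kit and, as 1.65 µg of Cy3-labelled cRNA, hybridised to 1 array per pool, per the labels' protocols. The deposited scanner files hold an intensity per spot, read with Agilent Feature Extraction (9.5.3.1 per the file headers, 9.5 in the submitters' processing notes). Per the file headers they were background-subtracted and detrended within an array, not scaled between arrays, and given a preset multiplicative error of 10%. The authors also deposited a table of whole-number score values. Set against the scanner values it proved to be intensity scaled so that the 75th percentile over all 45018 spots is 100, then rounded, with a coefficient of variation of the ratio of 0.0673% and 0.0679% and column medians of 9 and 10 (denervated and control). It served as an alternative only, and its scale, centring and direction are thereby known. No sample column was left unused.

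Spots marked non-uniform or outlying were left out (81 on the denervated and 87 on the control array, none of them of the channel genes), and the log2 values of a probe's spots were averaged. Each log2 intensity was set against its array's 75th percentile over all probes outside the control classes. A probe was measured when both arrays gave a signal well above background and neither was saturated. Of 41174 probes, 34414 had a symbol, 23374 of them through a RefSeq accession in a GRCm38.p6 table used for names. Positions are the array design's, on mm8. A difference of 2-fold was the threshold, and no p-value was computed.

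The 8 channel genes and the 18 other gene lists were chosen with earlier results of these data known. Named genes were all 8 with each probe, each gene past 2-fold in a related list (otherwise the one furthest from 0, and at most 5), and in a marker list the 2 furthest from 0 and the 2 brightest. Genes outside this rule are marked in the text or complete a small family. One gene that the rule names is not reported here. The steps were tested on simulated data. Alternatives covered scaling, background correction with limma 3.58.1 in R 4.3.3, the deposited table, dim probes, marked spots and the choice among probes. Python 3.11.15 with numpy 2.4.6 and pandas 2.3.3 was used.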

Additional observations from a re-analysis of the deposited data

How the results depend on the processing

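Of 14 alternatives, 13 were planned and 1, the mean of a gene's probes without the AK082993 probes, was chosen after seeing the data. No paired analysis was possible because each group holds 1 array, and no array could be left out for the same reason. The number of channel genes at least 2-fold higher was 2 in 12 of the 14 alternatives, and the number at least 2-fold lower was 0 in all 14. Under spike-in scaling 4 of the 8 were at least 2-fold higher and the median of the 8 was 0.87. The whole array then held 2273 genes higher and 646 lower by 2-fold or more. With no scaling between arrays 4 of the 8 were again at least 2-fold higher and their median was 0.90. The array's counts were then 2405 higher and 608 lower. With the probe nearest 0 for each gene the median of the 8 was 0.066 and P2rx7 was at -0.05. Dropping the filter on dim probes raised the genes counted from 15652 to 21972, and those past 2-fold on the low side from 1344 to 2572. Genes on the high side then made up 37.7% of all those past 2-fold, against 44.6% with the main setting. The larger number of genes alone therefore does not account for the rise, and its cause was not tested. Gja1 and Gja5 were below 0 and Panx1, P2rx4, P2rx5 and Trpv2 above 0 in all 14, P2rx7 was above 0 in 13 and Gja4 below 0 in 12. The precision is limited by 1 array per group. Signals near the lowest well above background, which was 17.9 on the denervated array and 14.5 on the control array, carry a larger technical error.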
